A study of Mus musculus with 2 samples.

Results

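Genes for 10 neutrophil granule proteins were followed through single-cell RNA profiles of lungs from tumor-bearing mice. They were taken by their symbols, as 10 of the 32285 genes in the count matrices. Mpo, Elane, Prtn3 and Ctsg stand for the primary granules. Ngp, Camp, Ltf, Lcn2 and Mmp8 stand for the secondary granules, and Mmp9 for the tertiary (gelatinase) granules. The order of these genes across neutrophils, their presence in other cell types and their levels in mice given nanoparticles (NPs) or saline were measured.

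All mice were female BALB/cJ animals of 12 weeks that carried tumors of the murine mammary carcinoma line 4T1, started from 100000 cells, and lungs were taken on day 14. The study's methods name the cells as 4T1-luc2-tdTomato, a form of the line that carries luciferase and tdTomato reporters. Mice received either saline or drug-free nanoparticles of PLG, a polymer, both intravenously, from day 1 and every 3 days for 5 doses. Each condition was 1 library, pooled from 4 mice by the sample labels and from another number by the study's methods. With 1 library per condition there was no replicate, so no test between conditions was made, and the spread between mice is unknown.

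A neutrophil builds its granules one kind after another while it matures in the bone marrow. The transcripts of primary granule proteins are made in promyelocytes, those of secondary granule proteins in myelocytes and metamyelocytes, and that of gelatinase in band cells. The proteins stay stored in the granules after the transcripts are gone, so a mature neutrophil in the lung carries proteins for which it no longer holds mRNA. Transcript levels therefore speak of the stage at which a cell was caught and not of its granule content.

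The unit of measurement was the unique molecular identifier (UMI), which counts each captured transcript once. Barcodes passed with 500 to 5000 genes detected and with mitochondrial UMIs under 7.5%, which gave 8662 saline and 8333 NP cells, with medians of 6474.5 and 6008 UMIs. The libraries held 91168129 and 90081747 UMIs in all and shared 21 cell barcodes. Neutrophils were 5585 saline cells (64.5%) and 3077 NP cells (36.9%), with medians of 6040 and 5224 UMIs. All 9 genes of their marker list had UMIs somewhere in the class in each library, which by itself does not set the class apart. Levels are in CPM, the UMIs of a gene per 1000000 UMIs of the named cells of 1 library. Ratios are log2 of NP over saline, and all intervals are exact 95% intervals that cover counting error only.

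The members lie on 5 chromosomes of the mouse assembly GRCm38, by GENCODE. Camp (chr9:109847379-109849617), Ngp (chr9:110419747-110423012) and Ltf (chr9:111019271-111042767) follow each other on chromosome 9, with 570 kb between Camp and Ngp and 596 kb between Ngp and Ltf. Mmp8 is on the same chromosome at chr9:7558456-7568485. Lcn2 (chr2:32384633-32388252) and Mmp9 (chr2:164940780-164955850) are on chromosome 2. Prtn3 (chr10:79874476-79883174) ends 3072 bases before Elane (chr10:79886247-79888215), and its span overlaps the gene Plppr3 on the other strand. Mpo is at chr11:87793581-87804413, where the antisense gene Gm11505 overlaps it, and Ctsg is at chr14:56099881-56102574, 14607 bases from the basophil protease gene Mcpt8.

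The stretches before the start of 5 members are shown because 3 of them (Ngp, Camp and Ltf) ran together across neutrophils, Mmp8 followed a different course, and Prtn3 was found mostly outside neutrophils. They come from the RefSeq promoter table (GRCm38.p6), which held 9 of the 10 members and no entry for Mmp9. Starts are those of this table, and the stretch of Prtn3 lies inside the GENCODE span of that gene given above. Of the 250 bases before each start, the longest run outside the gene's annotated exons is printed, 5′ to 3′ on the gene's own strand. Capitals mark matches on either strand to TTGCNNAA, a C/EBP-type motif, or to GAGGAAG, a PU.1-type motif. The runs are chr10:79879417-79879613 (+) for Prtn3, chr9:110419558-110419746 (+) for Ngp, chr9:109849618-109849706 (−) for Camp, chr9:111019042-111019270 (+) for Ltf and chr9:7558179-7558428 (+) for Mmp8.
Prtn3: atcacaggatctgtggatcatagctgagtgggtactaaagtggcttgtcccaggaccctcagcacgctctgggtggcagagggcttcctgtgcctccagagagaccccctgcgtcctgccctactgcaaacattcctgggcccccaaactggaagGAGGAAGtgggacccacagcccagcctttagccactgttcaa
Ngp: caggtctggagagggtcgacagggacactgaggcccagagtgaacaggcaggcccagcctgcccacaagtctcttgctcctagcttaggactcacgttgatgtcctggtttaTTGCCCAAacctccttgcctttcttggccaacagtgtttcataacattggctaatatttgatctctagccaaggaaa
Camp: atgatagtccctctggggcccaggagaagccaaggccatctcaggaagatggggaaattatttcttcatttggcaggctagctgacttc
Ltf: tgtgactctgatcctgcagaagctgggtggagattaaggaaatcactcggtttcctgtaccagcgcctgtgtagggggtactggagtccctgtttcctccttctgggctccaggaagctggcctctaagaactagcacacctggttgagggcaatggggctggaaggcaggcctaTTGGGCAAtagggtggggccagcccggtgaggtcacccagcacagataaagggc
Mmp8: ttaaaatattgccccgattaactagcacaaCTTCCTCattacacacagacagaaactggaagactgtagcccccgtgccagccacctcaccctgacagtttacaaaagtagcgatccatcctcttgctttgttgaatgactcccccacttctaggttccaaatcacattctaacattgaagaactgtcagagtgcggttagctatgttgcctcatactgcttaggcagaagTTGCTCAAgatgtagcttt

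Over the full 250 bases, TTGCNNAA was found in the windows of Ngp (2 matches), Ltf, Lcn2 and Mmp8 (1 match each). It was found in 9.56% of the 32851 windows of the table. GAGGAAG was found in the windows of all 4 primary granule genes, with 2 matches before Mpo and 1 each before Elane, Prtn3 and Ctsg, and also before Lcn2 and Mmp8. Of all windows, 10.6% held it. The Camp window held neither, which says only that these letters are not in it. A match is a run of letters and no measured binding site.

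To place the genes along maturation, neutrophils were divided into 12 sub-clusters without use of the members and were ordered from early to late by other genes. The early list holds cell cycle genes and the maturation factor Cebpe, and the late list holds Cxcr2, Csf3r, Il1b and other genes of mature cells. Sub-cluster N1, the earliest, was led by the cell cycle genes Ube2c, Birc5 and Mki67 and held 44 saline and 27 NP cells. Of the rest, 7 sub-clusters had at least 50 cells in each library. These were N2, led by Serpinb1a and Cybb, N3 (Scgb1a1, Stfa3), N4 (Ggt1, Prok2, Ly6g), N5 (Prok2, Retnlg), N9 (Apoe, Cxcr1), N10, led by the interferon-stimulated genes Ifit1 and Rsad2, and N12 (Cxcr4, Csf1). The rule of 50 cells left out N7 and N11, and also N6 (784 saline and 45 NP cells) and N8 (771 and 17). N6 was 14.0% of saline and 1.46% of NP neutrophils, and N8 was 13.8% and 0.552%. Scgb1a1, the leading gene of N3, is a secretory gene of airway epithelium. In saline cells the early list was at 11363 CPM in N1, 2726 in N2, 1929 in N4 and 2555 in N12. In NP cells it was at 13951, 3086, 2086 and 2511 CPM. From N4 to N12 the late list rose from 6824 to 33549 CPM in saline and from 6609 to 35902 CPM in NP cells. Past N4 the order thus rested mainly on the late list. Median UMIs per cell declined along this order, from 23625.5 and 22542 in N2 to 3629 and 3555 in N12, and CPM takes this depth out of a level but not out of a share of cells.

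The secondary granule genes split into 3 courses. Ngp, Camp and Ltf were highest in the cycling cells of N1, and Camp and Ltf were almost lost by N5 and Ngp by N9. Lcn2 declined slowly, and Mmp8 first rose and then declined. The tertiary gene Mmp9 followed Mmp8 with a smaller range.

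Ngp encodes a cystatin-like neutrophil granule protein. In saline cells its level was 37533 CPM in N1, 25515 in N2, 8366 in N3, 4351 in N4, 517 in N5, 73.0 in N9, 78.1 in N10 and 46.6 in N12. In NP cells the same sub-clusters held 45215, 30992, 12116, 6629, 607, 62.1, 227 and 32.6 CPM. Both libraries thus declined along the order up to N9, and N12 stood nearest to B cells, which should not express the gene and were at 18.2 and 17.6 CPM. From N2 to N12 the level was 547 times lower in saline and 951 times lower in NP cells, a mean log2 ratio of 9.49.

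Camp encodes the precursor of the antimicrobial peptide CRAMP. It was at 24371 CPM in N1, 11738 in N2, 2227 in N3, 606 in N4 and 24.5 in N5 of the saline library, and at 30103, 18748, 4436, 1054 and 30.5 CPM in the NP library. In N9, N10 and N12 it was at 8.77 to 14.4 CPM in saline cells, against 7.51 CPM in saline B cells. The saline cells of N6 were at 16.7 CPM. The step from N4 to N5 was the steepest in both libraries, with log2 changes of −4.63 (−4.90 to −4.36) and −5.11 (−5.40 to −4.84). The steps from N9 to N10 and from N10 to N12 in saline cells had intervals that included 0.

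Ltf encodes lactoferrin, the iron-binding protein of secondary granules. Its levels from N1 to N5 were 5964, 5266, 1370, 332 and 9.80 CPM in saline cells and 6788, 6439, 2338, 599 and 14.8 CPM in NP cells. It therefore changed least between N1 and N2 of these 3 genes and then followed Camp, with log2 changes of −5.08 and −5.33 from N4 to N5. Across the 7 larger sub-clusters of both libraries (14 points), Camp and Ltf had a Pearson r of 0.997 on log2(CPM + 1). These points share 2 libraries and a common trend in depth, and the r is given as a description.

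Lcn2 encodes lipocalin 2, which binds bacterial siderophores. It was at 18811 CPM in N1, 16827 in N2, 9617 in N3, 9698 in N4, 4875 in N5, 2067 in N9, 2241 in N10 and 1032 in N12 of saline cells. NP cells held 21096, 18463, 11529, 9303, 4641, 1796, 1994 and 780 CPM. N3 and N4 did not differ beyond counting error in saline cells (log2 ratio 0.01, −0.01 to 0.03). From N2 to N12 Lcn2 declined 16.3-fold and 23.7-fold, and even in N12 it stood far above the 37.9 and 19.7 CPM of B cells.

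Mmp8, neutrophil collagenase, was low in the cycling cells, with 149 CPM in saline and 46.4 CPM in NP cells of N1. It was at 624 and 620 CPM in N2, 923 and 1056 in N3, 1158 and 1296 in N4, 962 and 962 in N5, 339 and 288 in N9, 334 and 354 in N10 and 154 and 112 in N12. Its highest level was in N4 in both libraries, 7.51 and 11.6 times that of N12. Although often grouped with Ltf and Camp, it had an r of 0.590 with Camp and of 0.960 with Mmp9 over the same 14 points.

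Mmp9, gelatinase B, was at 336 and 145 CPM in N1, 811 and 799 in N2, 852 and 862 in N3, 988 and 1059 in N4 and 868 and 854 in N5. It then declined to 653 and 635 CPM in N9, 616 and 544 in N10 and 434 and 487 in N12. Its whole range from N2 to N12 was 2.28-fold in saline and 2.17-fold in NP cells. Over the same sub-clusters the secondary granule genes ranged at least 7.51-fold.

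**Figure D1:**
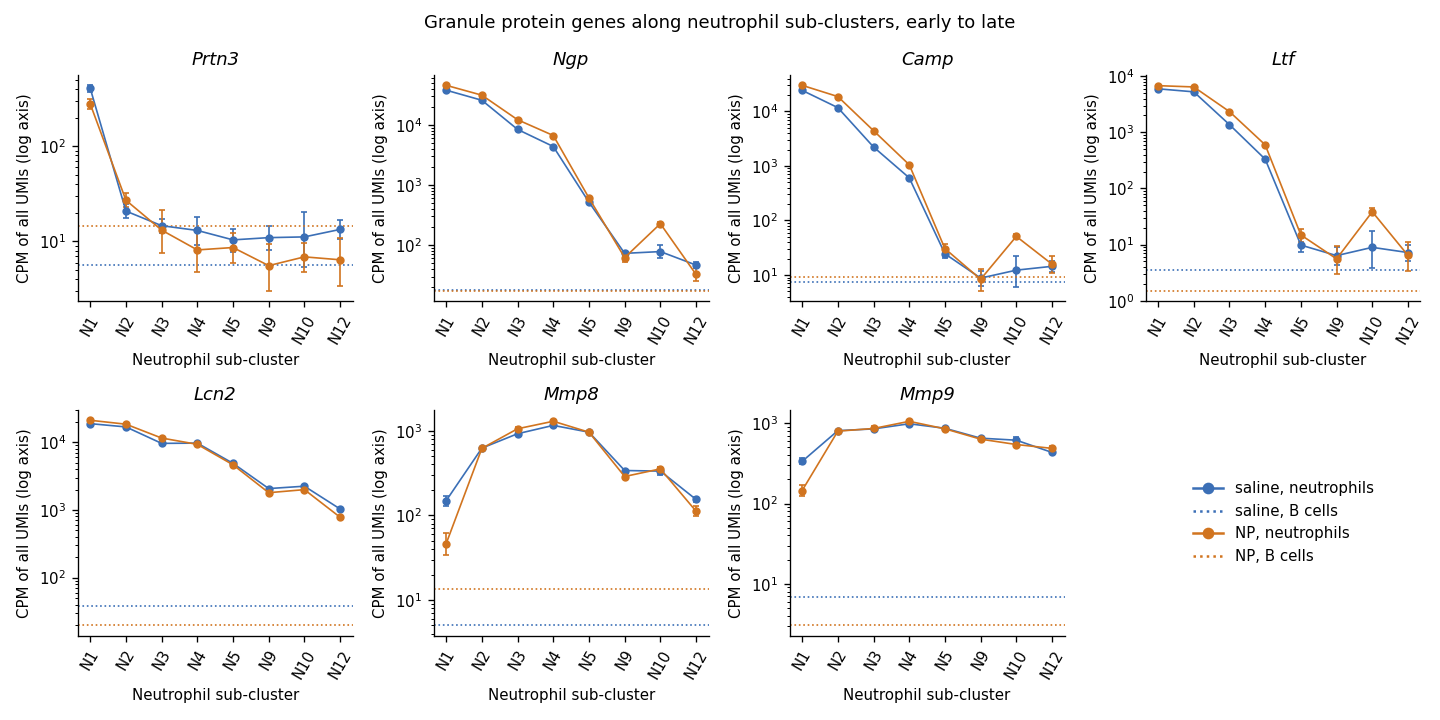
Level of 7 members (CPM, log axis) in sub-cluster N1 and the 7 larger neutrophil sub-clusters in order from early to late, for saline (blue) and NP (orange) cells. Bars are 95% counting intervals and dotted lines are B cells. Ngp, Camp and Ltf drop by N5, Mmp8 and Mmp9 are highest in N4, and Prtn3 is high only in N1 among the sub-clusters plotted.

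The same split was seen from cell to cell. Each neutrophil was thinned to 1000 UMIs, which left out 8 saline cells and 1 NP cell, and cells were grouped by their Camp UMIs. Ltf was detected in 2.35% of the 5018 saline cells without Camp, in 44.3% of those with 1 to 4 UMIs, in 94.2% with 5 to 14 and in 100% with 15 or more. In NP cells these shares were 1.15%, 43.4%, 96.4% and 99.3%. Mmp8 was detected in 31.0%, 56.1%, 41.0% and 15.8% of saline cells and in 25.5%, 53.7%, 52.4% and 19.9% of NP cells of the same groups. Cells with the most Camp thus held Ltf almost without exception. They held Mmp8 less often than cells with none in the saline library, while in NP cells the intervals of these groups overlapped (13.8% to 27.1% and 23.9% to 27.2%). Mmp9 was detected in 42.5%, 60.9%, 56.4% and 38.6% of saline cells and 40.6%, 48.5%, 59.5% and 38.4% of NP cells. The groups with 15 or more Camp UMIs held 114 saline and 151 NP cells.

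**Figure D2:**
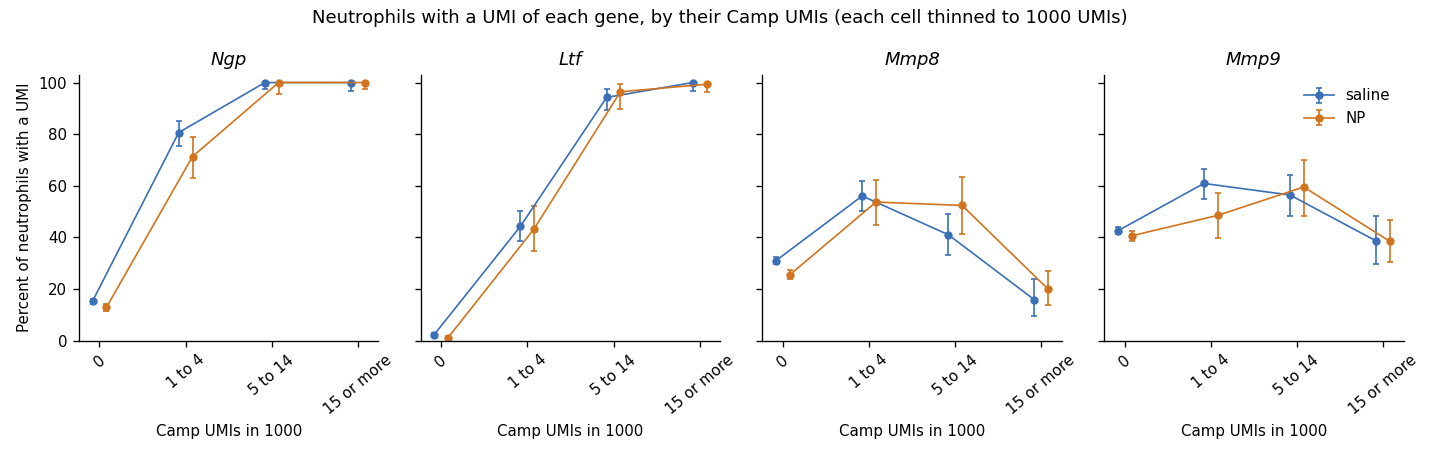
Percent of neutrophils with at least 1 UMI of Ngp, Ltf, Mmp8 or Mmp9, by the Camp UMIs of the cell after thinning to 1000 UMIs, with 95% binomial intervals, for saline (blue) and NP (orange) cells. Ngp and Ltf rise with Camp to at or near 100%, and Mmp8 is lowest in the cells with the most Camp, with intervals that overlap those of cells without Camp in the NP library.

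Few cells held most of the Camp, Ltf and Ngp transcripts. N1 and N2 were 5.48% of saline and 8.32% of NP neutrophils. They held 82.9% and 94.0% of the neutrophil UMIs of Camp, 75.2% and 90.1% of those of Ltf and 69.4% and 86.3% of those of Ngp. The corresponding shares were 40.3% and 62.4% for Lcn2, 12.9% and 23.1% for Mmp8 and 16.8% and 25.6% for Mmp9. Pooled levels of the first 3 genes were therefore mainly levels of these early cells, which also hold more UMIs per cell.

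**Figure D3:**
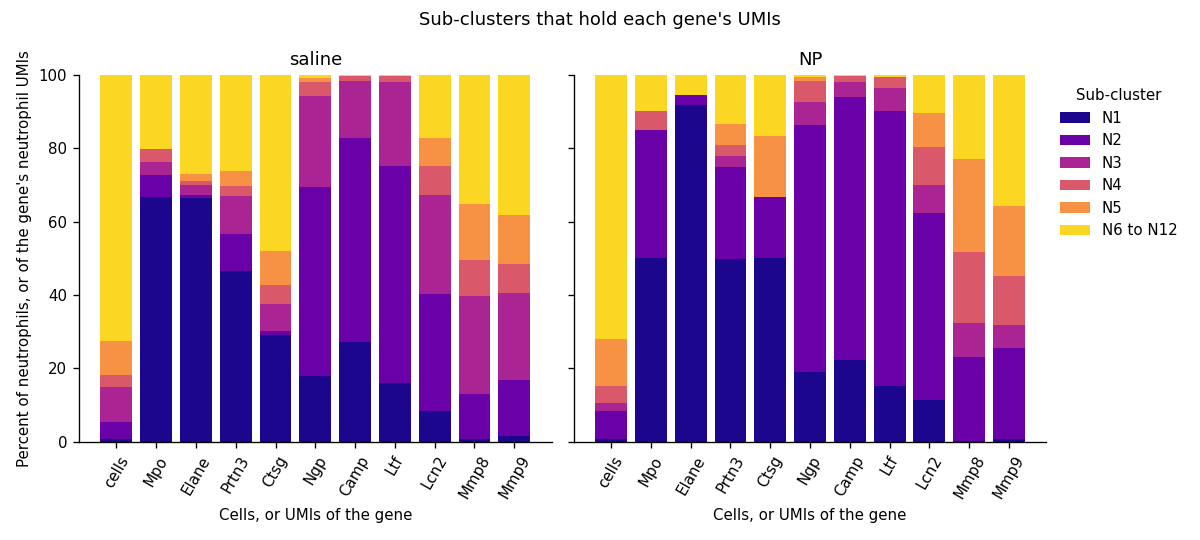
Percent of neutrophils (first bar) and of each gene's neutrophil UMIs that lie in sub-clusters N1 to N5 and in N6 to N12 together, for each library. Camp, Ltf and Ngp lie mostly in N1 and N2, and most Mmp8 and Mmp9 UMIs lie in later sub-clusters.

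Transcripts of primary granule genes were rare in neutrophils. Mpo encodes myeloperoxidase, Elane, Prtn3 and Ctsg encode the serine proteases neutrophil elastase, proteinase 3 and cathepsin G. In 5585 saline neutrophils there were 84 UMIs of Mpo, 107 of Elane, 1306 of Prtn3 and 96 of Ctsg, and in 3077 NP neutrophils there were 20, 36, 553 and 6. At least 1 UMI of any of the 4 was found in 12.4% of saline and 7.02% of NP neutrophils. After thinning to 1000 UMIs the shares were 2.10% (1.74% to 2.51%) and 1.14% (0.794% to 1.58%). B cells, which should lack these transcripts and had medians of 4341.5 and 4446.5 UMIs, gave thinned shares of 0.851% and 0.334%. The B cell share was lower in NP too, but it rested on few of 470 saline and 598 NP B cells. Their Prtn3 UMIs went the other way, with 16 in saline and 48 in NP, 29 of these in 1 cell. The part of this background in the difference between the neutrophil shares was not tested.

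Prtn3 was the only primary granule gene spread over the cells of N1, where 31 of 44 saline and 24 of 27 NP cells held a UMI. Its level was 405 CPM in saline and 278 CPM in NP cells of N1, 20.8 and 27.1 in N2, and 13.4 and 6.42 in N12, against 5.72 and 14.5 CPM in B cells. Of the 48 Prtn3 UMIs of NP B cells, 29 were in 1 cell. A single saline cell of N1 with 52657 UMIs held 315 UMIs of Prtn3, 62 of Elane, 49 of Mpo and 25 of Ctsg, which was 28.3% of all primary granule UMIs in saline neutrophils. Without the leading cell of each gene and library, N1 was at 202 and 198 CPM for Prtn3, 4.84 and 4.24 for Mpo, 6.22 and 13.8 for Elane and 2.07 and 2.13 for Ctsg.

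Most Prtn3 was found in classical monocytes, the Ccr2-expressing monocytes that leave the marrow, of which there were 684 saline and 1127 NP cells with medians of 15585.5 and 16174 UMIs. They held 1915 and 2938 Prtn3 UMIs, 53.1% and 74.8% of all in the cells of each library. The level was 174 CPM in saline and 157 CPM in NP monocytes, against 27.3 and 23.1 CPM in neutrophils, with log2 ratios of 2.68 (2.57 to 2.78) and 2.76 (2.63 to 2.90). Their mean of 2.72 was 3.47 at clustering resolution 2 and 3.08 with a minimum of 200 detected genes. Resolution 2 named only 4601 saline and 2756 NP cells as neutrophils, so each value at that resolution, here and below, is for a smaller set. A Prtn3 UMI was found in 64.9% and 60.1% of monocytes, or 10.5% and 12.95% after thinning. Within the monocytes, the cluster led by F13a1, Vcan and Ccr2 held 205 and 220 CPM, and the cluster led by Aif1, Ms4a6d and Cxcl9 held 33.2 and 29.0 CPM.

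Elane showed the same order at a lower level. It was at 11.7 CPM in saline and 9.70 CPM in NP monocytes and at 2.23 and 1.50 CPM in neutrophils, with log2 ratios of 2.38 (2.00 to 2.77) and 2.69 (2.17 to 3.25). Mpo was at 5.10 and 2.61 CPM in monocytes and Ctsg at 4.37 and 3.04 CPM. Primary granule genes also occurred together more often there. At least 2 of the 4 were detected in 79 saline (11.5%) and 112 NP (9.94%) monocytes, against 25 (0.448%) and 11 (0.357%) neutrophils, though monocytes had more UMIs per cell.

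Ctsg was highest in basophils, which are marked by Mcpt8 and Prss34. The 21 saline and 39 NP basophils held 77 and 97 Ctsg UMIs, or 442 and 360 CPM. One cell in each library held 67 and 58 of them, so these levels rest on few cells. A UMI was found in 5 and 13 basophils.

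Mmp8 was also found in classical monocytes. It was at 171 CPM in saline and 143 CPM in NP monocytes, 3.95 and 4.07 times below neutrophils (log2 ratios −1.98 and −2.03), and 14.5% and 12.5% of monocytes held a UMI after thinning. B cells were at 5.01 and 13.6 CPM, T cells at 49.3 and 38.8 and endothelial cells at 27.6 and 4.27 CPM. Mmp9 was near background in the same monocytes, at 4.19 and 4.69 CPM against 6.80 and 3.03 CPM in B cells. Thus the genes that ran together across neutrophils did not do so in monocytes. Ngp, Camp and Ltf were between 2.29 and 11.0 CPM in monocytes, at or below the levels of T cells.

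Lcn2 was also found in epithelial cells, at 440 CPM in 51 saline and 852 CPM in 48 NP cells. A UMI was present in 39.2% and 45.8% of them after thinning, and no more than 32 and 66 of the 291 and 737 UMIs were in 1 cell. Some levels of Ngp elsewhere rested largely on 1 cell, which held 618 of 638 UMIs in NP NK cells and 274 of 302 in saline mural cells. In NP interstitial macrophages 892 of 1729 Ngp UMIs were in 1 cell. Cells named as erythroid held 422 and 2024 CPM of Ngp, 2446 and 3282 CPM of Lcn2 and 176129 and 167201 CPM of S100a8 and S100a9 together, the leading neutrophil transcripts. They also held 447 and 591 CPM of Mmp8, and the part of neutrophil transcripts in these values was not tested.

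Clusters with markers of more than 1 cell type were kept apart from the named cells. In the cluster with markers of classical monocytes and neutrophils (87 saline and 124 NP cells), 58.6% and 46.0% of cells had a doublet score over a threshold shared by both libraries. This cluster held 13 Mpo UMIs in saline and 148 in NP cells, and 9 and 123 Ctsg UMIs. No NP cell in it held more than 31 of the Mpo or 25 of the Ctsg UMIs. In the NP library it thus had more Mpo and Ctsg than all named neutrophils. Its 3 NP cells with the most primary granule UMIs were not over that threshold.

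**Figure D4:**
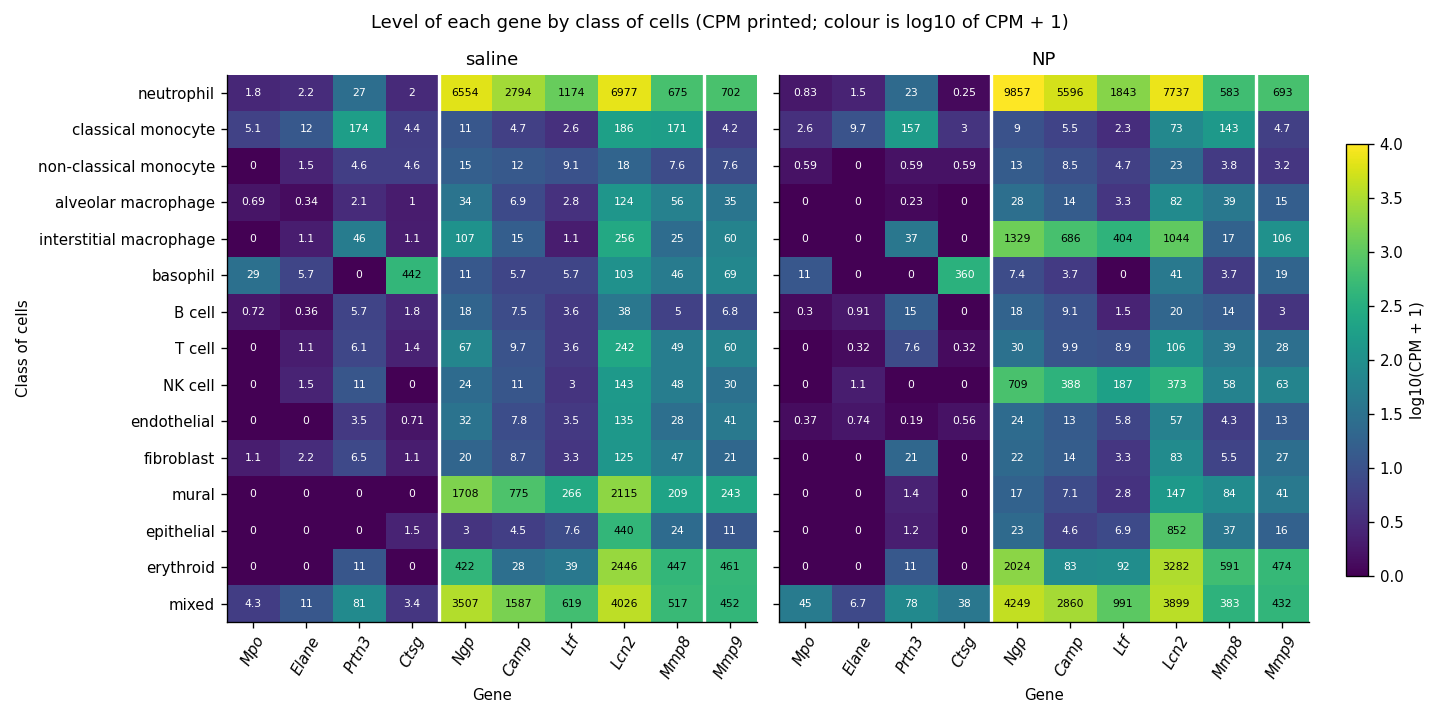
Level of each member by class of cells in the saline and NP libraries, with CPM printed and colored on a log10(CPM + 1) scale. White lines part primary, secondary and tertiary granule genes. Prtn3 is highest in classical monocytes and mixed clusters, Ctsg in basophils, and Ngp, Camp and Ltf in neutrophils.

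Between conditions, the secondary granule genes Ngp, Camp and Ltf were higher in NP than in saline neutrophils, and Lcn2, Mmp8 and Mmp9 were close to level. Pooled over the cells named as neutrophils, which leave out the mixed clusters, the primary granule genes were lower. Ngp was at 6554 CPM in saline and 9857 CPM in NP neutrophils, a log2 ratio of 0.59 (0.58 to 0.60). Camp was at 2794 and 5596 CPM (1.00, 0.99 to 1.01). Ltf was at 1174 and 1843 CPM (0.65, 0.63 to 0.67). These 3 lay above the median of −0.13 over the 7244 genes with at least 200 UMIs. Lcn2 was at 6977 and 7737 CPM (0.15, 0.14 to 0.16), Mmp8 at 675 and 583 (−0.21, −0.24 to −0.18) and Mmp9 at 702 and 693 (−0.02, −0.05 to 0.01).

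Of the 10 members, 4 were higher and 6 lower in NP neutrophils, with a median of −0.12. Past a 2-fold difference there was 1 member on the higher side, Camp, and 2 on the lower side, Mpo and Ctsg. Of all 7244 genes, 1.84% were at least 2-fold higher and 0.621% at least 2-fold lower. Camp stood at the limit itself, and Mpo and Ctsg were under the 200 UMIs asked of these 7244 genes.

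NP neutrophils included more cells rich in Camp. After thinning, 4.84% (4.29% to 5.44%) of saline and 7.64% (6.73% to 8.64%) of NP neutrophils had at least 5 Camp UMIs. At least 15 were found in 2.04% (1.69% to 2.45%) and 4.91% (4.17% to 5.73%). At least 1 was found in 10.0% and 12.1%, so the libraries differed most in the cells with the most Camp. Sub-cluster N2 made up 4.69% of saline and 7.44% of NP neutrophils, and N3 made up 9.44% and 2.34%. The NP sub-clusters were then weighted by their shares of saline neutrophil UMIs, 13.2% for N2. The ratios were 0.64 for Camp, 0.41 for Ltf and 0.35 for Ngp. N6 and N8 had weights of 14.9% and 8.93% but only 45 and 17 NP cells.

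Within the early sub-clusters the 3 genes were also higher in NP cells. These cells were not at an equal stage in both libraries by the lists that set the order. In N2 the early list was at 2726 CPM in saline and 3086 CPM in NP cells, and the late list at 2733 and 2298 CPM. In N3 the lists were at 2019 and 2389 CPM and at 5771 and 4978 CPM. N1 and N4 differed in the same directions, and the part of stage in the ratios was not tested. In N2 the log2 ratios were 0.28 for Ngp, 0.68 for Camp and 0.29 for Ltf. In N3 they were 0.53, 0.99 and 0.77, and in N4 they were 0.61, 0.80 and 0.85. Few cells carried the pooled levels in N3 and N4. In N3, 26 of 527 saline and 5 of 72 NP cells held at least 50% of the Camp UMIs, and 35 and 8 held as much of Ltf. The median cell of N3 was at 133 CPM of Camp in saline and 835 CPM in NP, and at 86.8 and 241 CPM of Ltf. In N4, 9 of 144 NP cells held at least 50% of the Ltf UMIs and 7 held as much of Camp. The median cell of N4 was at 67.6 CPM of Ltf in saline and 23.0 CPM in NP, and the thinned shares of cells with a UMI were 21.5% and 19.4% for Ltf and 30.4% and 27.1% for Camp. Lcn2, Mmp8 and Mmp9 stayed between −0.06 and 0.26 in N2, N3 and N4. In N1, with 44 saline and 27 NP cells, Ngp, Camp and Ltf had ratios of 0.27, 0.30 and 0.19, Mmp8 was at −1.69 (−2.18 to −1.22) and Mmp9 at −1.21 (−1.48 to −0.94). In the interferon-stimulated N10, with 160 saline and 964 NP cells, Ngp, Camp and Ltf had ratios of 1.54, 2.06 and 2.11, but 1 NP cell held 594 of 1187, 193 of 267 and 172 of 201 UMIs. Without the leading cell of each library the ratios were 0.83 (0.43 to 1.25), 0.64 (−0.41 to 1.91) and −0.03 (−1.41 to 1.70).

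**Figure D5:**
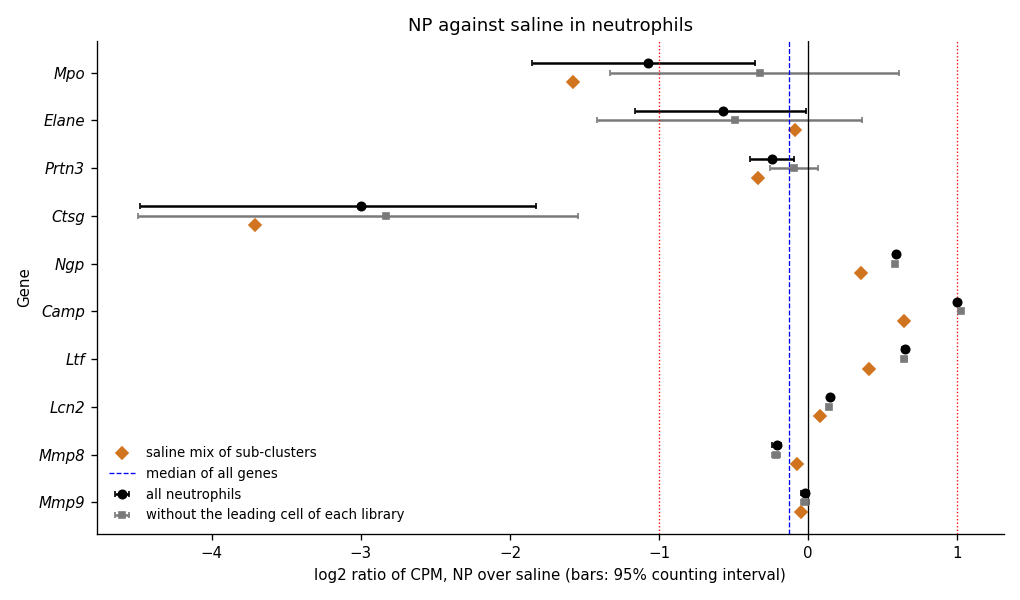
Log2 ratio of CPM, NP over saline, in neutrophils for each member. Black circles are all neutrophils, and gray squares leave out the cell with the most UMIs of the gene in each library. Both have 95% counting intervals. Orange diamonds weight sub-clusters by their shares of saline neutrophil UMIs. The dashed line is the median of all genes at −0.13 and dotted lines are 2-fold. Camp, Ltf and Ngp lie to the right in all 3 readings, and Mpo moves from −1.07 to −0.32 without the leading cells.

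The primary granule genes together were at 33.3 CPM in saline and 25.7 CPM in NP neutrophils, a log2 ratio of −0.37 (−0.51 to −0.24). Without the leading cell of each library the ratio was −0.17. Prtn3 was at −0.24 (−0.39 to −0.10) and at −0.09 without the leading cells, and Mpo was at −1.07 (−1.85 to −0.36) and −0.32 (−1.33 to 0.61). Elane was at −0.57 (−1.16 to −0.02) and −0.49, but at −2.18 at clustering resolution 2, at −2.35 with equal weight per cell, at −2.57 without N1 and at 2.34 with free RNA, described next, subtracted. Ctsg was at −3.00 (−4.48 to −1.83) and −2.83, but at −0.04 (−0.53 to 0.43) when neutrophils were taken as all cells with at least 2% of UMIs on S100a8 and S100a9. The cluster with markers of monocytes and neutrophils, kept apart from these neutrophils, held more Mpo and Ctsg in NP. Over all cells, saline and NP had 164 and 226 UMIs of Mpo and 253 and 291 of Ctsg. Elane had 283 and 252, and Prtn3 had 3608 and 3926. Within sub-clusters the direction varied. The primary granule genes together were higher in NP in N2 (0.39, 0.05 to 0.74), where 1 NP cell held 40 of 148 UMIs. They were lower in N1 (−0.65, −0.84 to −0.46), N4 (−0.92, −1.80 to −0.10), N9 (−1.50, −2.44 to −0.66) and N12 (−1.58, −2.49 to −0.77). The pooled value of N1 rested largely on 1 saline cell, with 451 of 762 UMIs, while 1 NP cell held 107 of 321. The median cell of N1 went the other way, at 66.1 CPM in saline and 112 CPM in NP, and 72.7% and 88.9% of cells held a UMI. In N3, N5 and N10 the intervals included 0.

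Free RNA bears on counts as low as these. In barcodes with under 50 UMIs, which hold free RNA, Ctsg was at 60.7 CPM in saline and 10.6 CPM in NP, Elane at 36.5 and 10.9, Mpo at 22.1 and 15.8 and Prtn3 at 147 and 78.3. Scaled by the S100a8 and S100a9 found in B and T cells, free RNA would be 5.59% of the UMIs of saline neutrophils and 4.78% of those of NP neutrophils. That amounts to 162 Ctsg UMIs in saline neutrophils against 96 observed, to 97.8 of 107 for Elane and to 59.0 of 84 for Mpo. For Prtn3 it amounts to 394 of 1306. With this amount taken off, the ratio of the primary granule genes together was 0.12 in place of −0.37. The amount from B and T cells was thus more than the Ctsg observed. T cells, on which it partly rests, held 17767 and 10331 CPM of S100a8 and S100a9, against 2090 and 866 in B cells. Doublet scores were over the shared threshold in 5.86% and 7.11% of T cells and in 2.55% and 1.34% of B cells. The part of doublets in this was not tested. Scaled by B cells alone, the free share was 1.07% and 0.757% and the ratio was −0.30. The sign of the primary group thus turned at the larger amount and not at the smaller. The larger amount was above the Ctsg observed but not above the Mpo, Elane or Prtn3 observed. The smaller was chosen after seeing the data, and the part of free RNA in the ratio was not tested. Either subtraction left the median of the 5 secondary genes at 0.59.

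In classical monocytes, Lcn2 was lower in the NP library. It was at 186 CPM in saline and 73.1 CPM in NP monocytes, a log2 ratio of −1.35 (−1.44 to −1.25), and it was the only member past 2-fold there. It was past 2-fold in 4 of 8 alternatives of processing and was −0.87 with a minimum of 800 detected genes, −0.87 with a mitochondrial limit of 15%, −0.88 with doublets removed at a shared threshold and −0.80 with mixed clusters kept. In the last, monocytes took in the cluster with markers of monocytes and neutrophils, which held 5095 saline and 5199 NP Lcn2 UMIs. The others also had narrower intervals than the main setting, such as −0.92 to −0.82 with 800 genes, so more Lcn2 UMIs were counted there. Whether such cells were taken in there was not tested. Of 7837 genes in monocytes, 1.25% were at least 2-fold higher and 0.319% at least 2-fold lower, and their median was −0.05. In the cluster led by F13a1 and Vcan, Lcn2 was at 221 and 93.5 CPM (−1.24, −1.34 to −1.13), and in the cluster led by Aif1 at 24.5 and 32.2 CPM (0.39, −0.07 to 0.88). Lcn2 in free RNA was at 3172 CPM in saline and 2025 CPM in NP, and it was at 242 and 106 CPM in T cells and 135 and 57.2 CPM in endothelial cells. Lcn2 was thus lower in NP in these cells and in free RNA too, and their part in the result was not tested. Prtn3 and Mmp8 in monocytes had ratios of −0.15 (−0.24 to −0.07) and −0.25 (−0.34 to −0.17).

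Other genes of granules and of their making were read from lists. Of 15 further cargo genes, 13 had at least 20 UMIs in neutrophils. There 6 were higher and 7 lower in NP neutrophils, with a median of −0.06. In both libraries 10 were higher in N2 than in N12. No share over all genes is set beside this count, so it does not show the cargo genes as unusual. Fcnb, which encodes ficolin B, was the only cargo gene past 2-fold, at 577 saline and 745 NP UMIs (1.37, 1.21 to 1.53). It was at 201 and 393 CPM in N1 and at 39.0 and 68.6 CPM in N2. Lyz2, lysozyme, had a ratio of 0.68 and Cybb, the large subunit of the phagocyte oxidase, had 0.45. Chil3 was at 0.16, Cd177 at −0.07 and Olfm4 at −0.30.

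Among 8 genes for regulators of granule gene transcription, 6 were higher and 2 lower, with a median of 0.34 and none past 2-fold. As for the cargo genes, no share over all genes is set beside this count, so it does not show the regulators as unusual. Cebpe, the C/EBP factor needed for secondary granules, was at 564 and 688 CPM in N1, 192 and 245 in N2 and 9.15 and 9.87 in N12, with a ratio of 0.56 (0.48 to 0.64). It is in the early list that set the order, so its decline along the order was partly built in. Cebpb ran the other way along the order, from 1371 and 1342 CPM in N2 to 5458 and 6656 in N12. Spi1, which encodes PU.1, was at 722 and 646 CPM in N2 and 1097 and 1128 in N12. Gfi1 had 14 and 12 UMIs in all. Of 4 genes that handle granule proteases, Serpinb1a, an inhibitor of elastase and its relatives, had 0.19, Srgn, the core protein that packs proteases, had 0.25, Slpi had −0.02 and Ctsc, which activates the serine proteases, had −0.16.

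By their levels over the 14 sub-cluster points, the 5 genes most like the secondary group were Olfml2b (r = 0.995), Itgb2l, Wipi1, Anxa3 and Emp3. Those most like Mmp9 included Gm26748 (r = 0.975), Actn1, Cnn2 and Gm11714. For the primary group the highest values were lower, with Acadm (r = 0.851) before Glmp, Aptx, Fkbp8 and Taf2. The points share 2 libraries and the trend in depth, and the primary group was near background in most of them.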

How the data were processed

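Single lung cells of 1 saline and 1 NP library were analysed. The authors deposited raw UMI counts per gene and barcode, not normalized and before cells were selected. Per the submitters' processing notes, bcl2fastq, Cell Ranger 6.0 and the mm10 build were used, while the matrix headers name Cell Ranger 4. Cells had 500 to 5000 detected genes and under 7.5% mitochondrial UMIs, which left medians of 6474.5 saline and 6008 NP UMIs. Counts were scaled to 10000 and log transformed, and 2000 variable genes without the members gave 30 components, 20 neighbors and Leiden clusters at resolution 1, for both libraries together. Neutrophils were clustered again in the same way. Clusters were named by marker lists, and 3 clusters with markers of 2 types and 1 unnamed cluster were kept apart by a rule set after seeing the data. Cell names were rebuilt here and may differ from the study's. Doublets were kept, and Scrublet scores served as an alternative.

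Levels are pooled CPM with Poisson intervals, ratios have exact conditional binomial intervals with counts under 3 set to 3, and shares have Clopper-Pearson intervals. Intervals cover counting error only. Cells were thinned once to 1000 UMIs. Genes in lists needed 20 UMIs, and genes for the background needed 200. Named genes were the members, the fixed lists and the 5 genes most like each granule group. A gene under this rule is not reported here. The members and lists were chosen with earlier results of these data known. Gene positions are from GENCODE on GRCm38, and promoter sequences from RefSeq. The calculations were tested on simulated data. The work used matplotlib 3.10.9, scanpy 1.11.5, igraph 0.11.9, leidenalg 0.10.2, scikit-learn 1.9.0, pandas 2.3.3, SciPy 1.17.1 and numpy 2.4.6 under Python 3.11.15.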

Additional observations from a re-analysis of the deposited data

How the results depend on the processing

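With 1 pooled library per condition, the spread between mice cannot be measured, and no replicate could be left out. No paired analysis was possible because there was 1 library per condition. The log2 ratio of the primary granule genes in neutrophils (−0.37) was below 0 under 16 of 17 alternatives. Of these 17, here and below, 1 dropped the UMI minimum for the median of all genes, which cannot change these ratios. The ratio was 0.12 with free RNA subtracted at the level of B and T cells, and −0.30 at the level of B cells alone. The larger amount was above the Ctsg observed but not above the Mpo, Elane or Prtn3 observed. With equal weight per cell the ratio was −0.73, and without the leading cells it was −0.17. Among single genes, Elane (−0.57) was 2.34 with free RNA subtracted, and Mpo (−1.07) changed to 0.42 when neutrophils were all cells with at least 2% of UMIs on S100a8 and S100a9, and to 0.47 with equal weight per cell. The median ratio of the secondary granule genes (0.59), which was the ratio of Ngp in each setting, was above 0 under all 17. It was 0.58 and 0.60 with doublets removed at each library's own and at 1 shared threshold, 0.44 at resolution 2, 0.55 with mixed clusters kept, 0.52 for the cells chosen by S100a8 and S100a9, 0.72 with the median gene set to a ratio of 1, 0.47 with equal weight per cell and 0.35 with the saline mix of sub-clusters. Mmp8 (−0.21) was below 0 under all 17, and Lcn2 (0.15) was above 0 under 16 and at −0.085 with equal weight per cell. Mmp9 (−0.02) was at −0.062 for the cells chosen by S100a8 and S100a9 and at 0.11 with the median gene set to 1. The median log2 decline of the 5 secondary genes from N2 to N12 was 9.49, against 4.30 for Lcn2 and 2.24 for Mmp8. Other settings were clustered anew, and the decline was taken between their own first and last larger sub-clusters. It was 7.99 and 8.57 with minimums of 200 and 800 detected genes and 9.86 at resolution 2. Between the top 5% and bottom 50% of cells by the early to late index it was 6.13. The log2 ratio of the thinned share with a primary granule UMI (−0.88) ranged from −1.27 to −0.63 over 12 alternatives. None of these 12 took off free RNA, and the thinned share in B cells was also lower in NP, though it rested on few cells. Scrublet's own threshold called 1 saline cell, so it did not work there. The shared threshold, mixed clusters, the leading cells, N1 left out and free RNA by B cells alone were alternatives chosen after seeing the data.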
